A study of Mus musculus with 2 samples.

Results

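Both mature strands of miR-210, miR-210-3p (mmu-miR-210-3p) and miR-210-5p (mmu-miR-210-5p), were followed in cultured aortic smooth muscle cells of diabetic db/db mice and of control db/+ mice. They were found by name and are 2 of the 1909 mature microRNA names listed for each library. Per the labels, the db/db cells came from BKS.Cg-m+/+Leprdb/J mice with type 2 diabetes and the db/+ cells from Lepr+/- mice without it. All donors were male and 10 to 12 weeks old, the cells were grown out of the thoracic aorta, and the medium was DMEM/F-12 with 10% fetal bovine serum and antibiotics. Each group was 1 library of total RNA, so no value has a replicate and the genotypes could not be tested against each other. The number of mice and cultures behind each library, the passage and the oxygen supply are not stated in the labels.

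MiR-210 is the microRNA most widely known for its response to low oxygen. Hypoxia-inducible factor (HIF), the transcription factor that is stabilised when oxygen falls, activates its gene in most cell types studied. The 3p strand is the one usually loaded into the silencing complex, and its known targets include Iscu, which builds the iron-sulfur clusters of mitochondrial enzymes, and in human endothelial cells the ephrin EFNA3. The 5p strand is the partner released from the same hairpin and is less studied.

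Both strands come from 1 hairpin, the gene Mir210, at chr7:141221384-141221493 on the minus strand of GRCm38, the assembly also called mm10. In GENCODE M21 this stretch lies between genes, in no exon or intron of another gene. The nearest genes are Rassf7, 2725 bases away, and Phrf1, 7290 bases away, both on the plus strand. The mature sequences from RefSeq (GRCm38) are shown with the seed, bases 2 to 8 from the 5′ end, in capitals, because the seed is the part that pairs with target RNAs. The hairpin is shown with both mature strands in capitals, the 5p strand first.
miR-210-3p: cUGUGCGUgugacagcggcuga
miR-210-5p: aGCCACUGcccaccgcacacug
Mir210 hairpin: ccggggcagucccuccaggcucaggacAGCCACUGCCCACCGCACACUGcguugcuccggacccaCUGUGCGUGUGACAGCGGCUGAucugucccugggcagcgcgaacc

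The sequences of both strands were compared with the rest of the catalogue. How many other microRNAs stand as far from their nearest sequence was not counted. None of the other 1678 mature mouse microRNAs in the RefSeq table carried either seed, and none shared even bases 2 to 7. The closest other sequence was 7 edits away for each strand, and the longest run of bases shared with any other microRNA was 9 for the 3p strand and 10 for the 5p strand. Among microRNAs that reached 50 counts in 1 library or both, no other name had the same pair of counts as either strand, whereas 24 names had counts identical to those of another name. In the structure of lowest predicted energy, 16 of the 22 bases of the 5p strand paired with the 3p strand. In that structure the first base of the 3p strand was unpaired and the first base of the 5p strand was paired.

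The libraries held 24295112 microRNA counts in db/db and 25915732 in db/+. Counts were divided by these totals and given as CPM, counts per 1000000 microRNA counts. Smooth muscle markers of the miR-143/145 locus summed to 1567 CPM in db/db and 1656 CPM in db/+, with 4 of 4 names detected at 50 counts or more. The 2 endothelial marker names of miR-126a had 71 counts in db/db and 7 in db/+, or 2.92 CPM in db/db and 0.270 CPM in db/+. Of 6 blood markers, miR-142a-3p, miR-144-3p and miR-223-3p were at 0 in both libraries, and the list summed to 6.71 CPM in db/db and 6.48 CPM in db/+. Most of that sum was 1 name, miR-486a-5p, with 147 of 163 counts in db/db and 150 of 168 in db/+. The 7 epithelial markers summed to 1.19 CPM in db/db and 0.463 CPM in db/+.

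MiR-210-3p was lower in the db/db library. It had 156 counts in db/db and 431 in db/+. On the CPM scale this was 6.42 CPM in db/db (95% interval 5.45 to 7.51) and 16.6 CPM in db/+ (15.1 to 18.3). The intervals are exact Clopper-Pearson intervals, they cover counting error only, and here they did not overlap. The ratio of db/db over db/+ was 0.386 (exact conditional interval 0.319 to 0.465), a level 2.59-fold lower in db/db, and the log2 ratio was -1.37. Of the 2 endothelial names, miR-126a-5p had 58 counts in db/db and 2 in db/+. MiR-126a-3p had 13 in db/db and 5 in db/+, with a ratio interval of 0.928 to 9.94 that includes 1. The 7 epithelial markers also summed higher in db/db, and the part of either marker list in the miR-210 difference was not tested. In bulk cultures such as these, fewer cells that express a microRNA cannot be told apart from less of it per cell.

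MiR-210-5p was lower by a similar factor, at a much lower level. It had 23 counts in db/db and 59 in db/+. The levels were 0.947 CPM in db/db (0.600 to 1.42) and 2.28 CPM in db/+ (1.73 to 2.94), and these intervals were also apart. The ratio was 0.416 (0.245 to 0.684), a level 2.40-fold lower in db/db, and the log2 ratio was -1.25. The upper end of that interval lies above 0.5, so the counts of the 5p strand alone do not set the difference at 2-fold or more. Summed over both strands, miR-210 had 179 counts in db/db and 490 in db/+, or 7.37 CPM in db/db (6.33 to 8.53) and 18.9 CPM in db/+ (17.3 to 20.7), with a ratio of 0.390 (0.327 to 0.463).

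**Figure D1:**
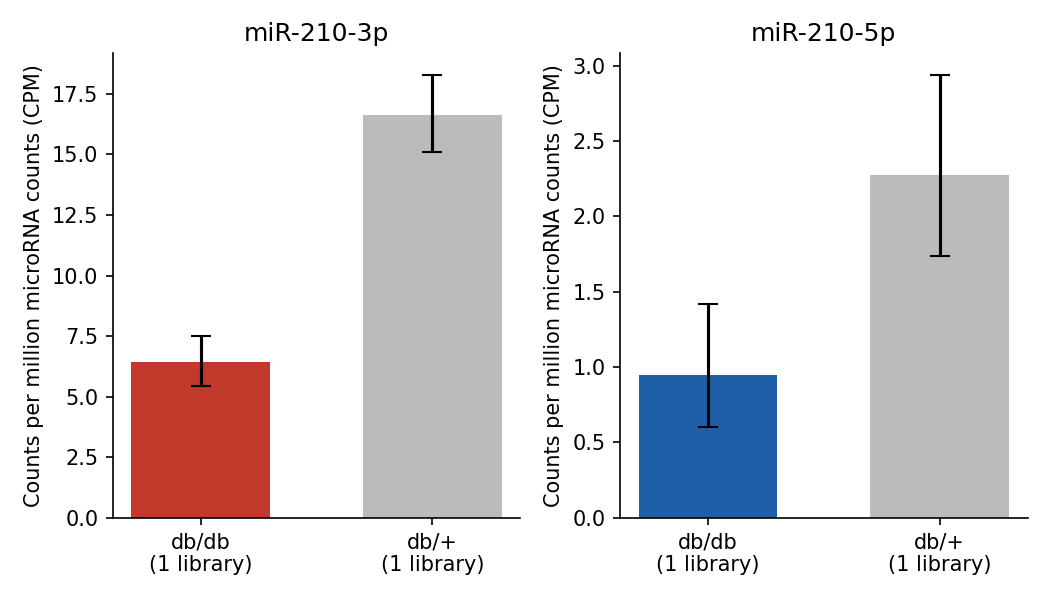
Level of miR-210-3p (left panel) and miR-210-5p (right panel) in the db/db and the db/+ library, in CPM; bars are single libraries and lines are exact 95% counting intervals. The db/db bars stand at 6.42 and 0.947 CPM and the db/+ bars at 16.6 and 2.28 CPM, with intervals that do not overlap in either panel; the vertical scales of the panels differ.

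Neither strand was among the abundant microRNAs of these cells. In order of level, miR-210-3p was in place 229 of 833 detected microRNAs in db/db and in place 176 of 881 in db/+. In the db/db library its neighbours were miR-450b-3p at 6.54 CPM and miR-421-3p at 6.38 CPM, and the intervals of 52 other microRNAs overlapped its own, so its place among them is not resolved. In the db/+ library its neighbours were miR-410-3p at 16.7 CPM and miR-181c-5p at 16.5 CPM, with 20 overlapping intervals. The place of miR-210-5p was 397 in db/db and 332 in db/+, with overlapping intervals for 203 and 90 other microRNAs.

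To read the ratios against the rest of the data, microRNAs that reached 50 counts in either library were counted as lower at a ratio of 0.5 or less and as higher at 2 or more. Of 356 such microRNAs, 48 were lower, which is 13.5%, and 16 were higher, which is 4.49%. Both strands of miR-210 were among the 48. Of microRNAs whose higher count was at least 50 and under 1000, the range that holds both strands, 40 of 232 were lower, or 17.2%. A ratio below 0.5 was thus not rare at this level. From the lowest ratio upward, miR-210-3p was in place 26 and miR-210-5p in place 32 of the 356, and the median log2 ratio of all 356 was -0.14. MiR-210-5p reached 50 counts only in db/+, where it was high. The limit on counts therefore favours a low ratio for it, and its place is a description only.

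**Figure D2:**
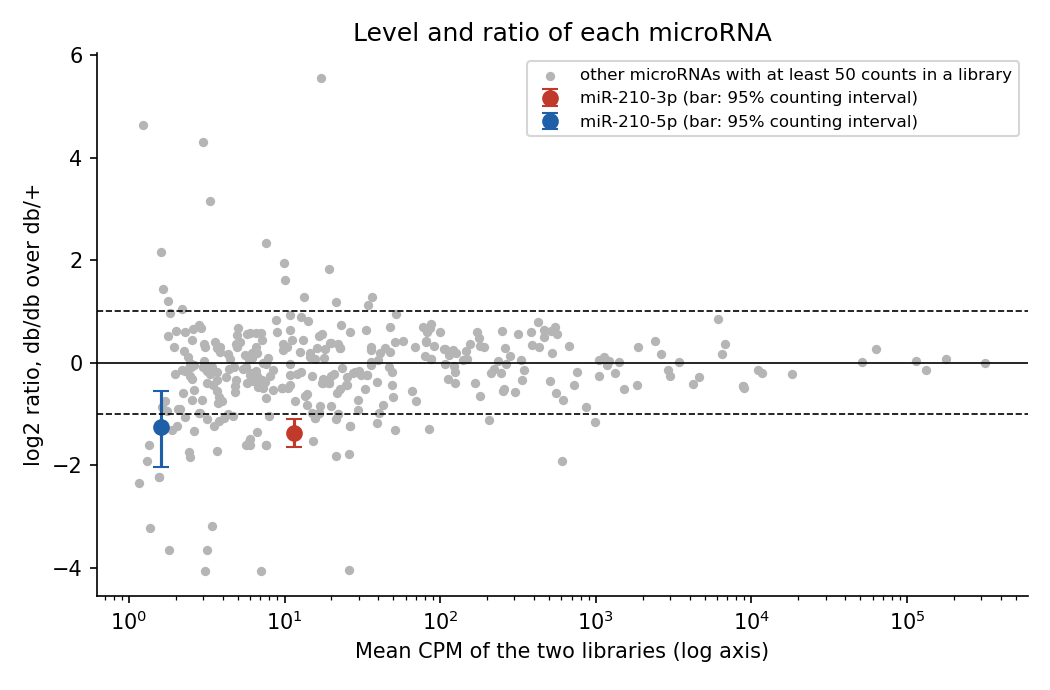
Each point is 1 of the 356 microRNAs that reached 50 counts in either library; the horizontal axis is the mean CPM of both libraries on a log scale and the vertical axis the log2 ratio of db/db over db/+, with dashed lines at 2-fold. Both strands of miR-210 (red and blue, with 95% counting intervals) lie below the lower line, at log2 ratios of -1.37 and -1.25, among other points of like level.

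Among the 295 microRNAs that reached 100 counts in either library, miR-210-3p had the ratio in place 18 from the lowest. Next below it were miR-361-5p at 0.356 (0.271 to 0.463), miR-19b-3p at 0.348 (0.294 to 0.410) and miR-377-3p at 0.339 (0.257 to 0.442). Next above it were miR-467c-5p at 0.393 (0.306 to 0.502), miR-15b-5p at 0.405 (0.371 to 0.442) and miR-674-5p at 0.411 (0.384 to 0.439). All of these intervals overlapped that of miR-210-3p.

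The microRNAs most like each strand were taken as those nearest in log2 CPM over the 2 libraries, which is a likeness over only 2 points. For miR-210-3p the nearest was miR-674-3p, with 210 counts in db/db and 378 in db/+, and the second was miR-19b-3p of the miR-17-92 cluster, with 190 in db/db and 583 in db/+. The ratios of these 2 were 0.593 and 0.348. The next were miR-34b-3p at a ratio of 0.708 and miR-297b-3p and miR-297c-3p at 0.709, whose counts were identical. For miR-210-5p the nearest were miR-6516-5p at a ratio of 0.543, miR-129-1-3p at 0.396, miR-669o-5p at 0.516, miR-466g at 0.600 and let-7b-3p at 0.422.

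The balance of the 2 strands was nearly the same in both libraries. The 3p strand held 87.2% of miR-210 counts in db/db (95% interval 81.3 to 91.7, 156 of 179 counts) and 88.0% in db/+ (84.7 to 90.7, 431 of 490). This share is taken within a library, so the scaling of the libraries does not enter it. The odds of 3p over 5p in db/db relative to db/+ were 0.929, with an exact conditional interval of 0.543 to 1.63. That interval includes 1, so a shift in strand balance was not detectable at this depth. Over the 204 hairpins with at least 50 counts in each library, the median difference in 3p share was 0.917 percentage points, against 0.808 for miR-210.

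Few hairpins had both strands lower. Of 83 hairpins with both strands at 50 counts or more in a library, 14 had at least 1 strand with a ratio of 0.5 or less, and 3 had both, which is 3.61%. The 3 were miR-210, miR-669a and miR-9. The 5p strand of miR-210 reached 50 counts only in db/+, where it was high, and so did both strands of miR-9, so the limit on counts favours a lower ratio for them and the number of hairpins is a description only. At a limit of 100 counts, or with the whole interval of each strand required to lie below 0.5, 2 hairpins remained and miR-210 was not among them. For miR-9, best known from neural progenitors, the 5p strand had 19 counts in db/db and 347 in db/+, and the 3p strand had 11 in db/db and 154 in db/+. The ratios were 0.0584 for miR-9-5p and 0.0762 for miR-9-3p. For miR-669a, a multicopy microRNA of the Sfmbt2 intron whose reads may be split between near-identical names, the ratios were 0.327 for the 5p strand and 0.424 for the 3p strand. The log2 ratios of the miR-210 strands differed by 0.12, whereas the median difference over the 83 hairpins was 0.47, and 7 hairpins had a smaller difference. The odds of 3p over 5p in db/db relative to db/+ had a wide interval, 0.543 to 1.63. The place of miR-210 in this order is therefore not resolved.

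**Figure D3:**
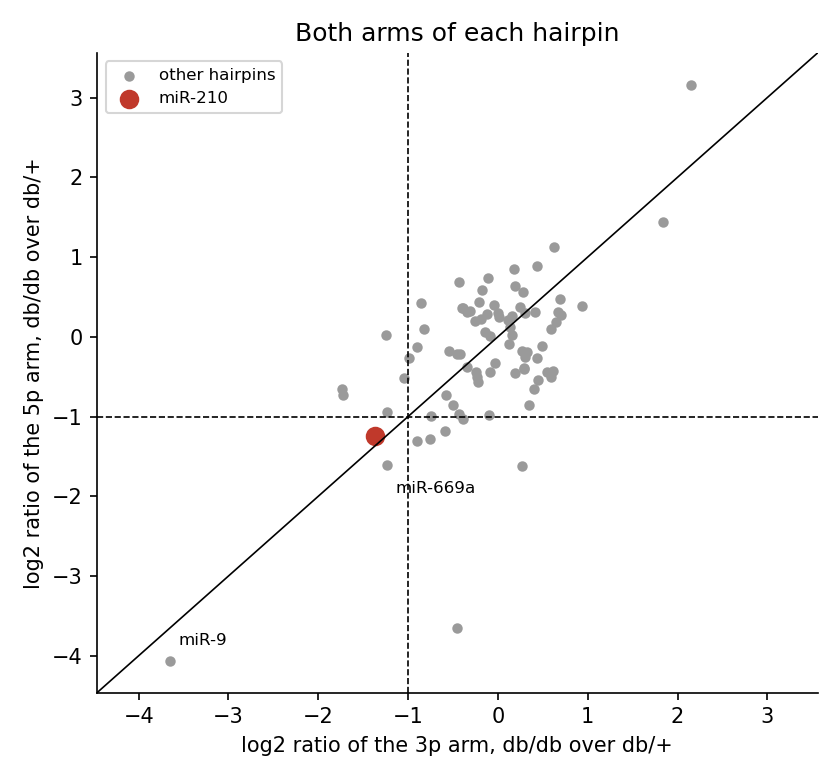
Log2 ratio of db/db over db/+ for the 3p strand (horizontal) and the 5p strand (vertical) of each of the 83 hairpins with both strands at 50 counts or more in a library; the diagonal marks equal ratios and the dashed lines a ratio of 0.5. MiR-210 (red) sits near the diagonal in the lower left corner, which it shares with miR-9 and miR-669a.

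Other microRNAs reported to rise in low oxygen, mostly in human cells, did not have ratios as low as miR-210. The list held 17 names without miR-210, all 17 had at least 50 counts in a library, and 0 were at least 2-fold lower or higher, against 13.5% lower among all 356. That share is not matched for level. Of the 48 lower microRNAs, 40 had a higher count under 1000, whereas most names on the list had more. Of the 17, 12 had ratios below 1 and 5 above, and the median log2 ratio was -0.35. Over all 356 microRNAs the split was 203 below 1 and 153 above, or 190 below and 166 above with edgeR TMM scaling, and the median was -0.14. The most abundant was miR-21a-5p, a growth-linked microRNA of injured vessels, with 7399 CPM in db/db and 10479 CPM in db/+, a ratio of 0.706 (0.702 to 0.710). Ratios were 0.750 for miR-103-3p, 0.837 for miR-191-5p, 0.836 for miR-24-3p and 0.552 for miR-23a-3p, which was the lowest of the list. The 5 names above 1 were miR-27b-3p and 4 forms of miR-181, which reached 1.60 (1.13 to 2.27) for miR-181a-1-3p.

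The interval of the miR-210-3p ratio lay below those of all 17 names on this list. The interval that began nearest to it was that of miR-322-5p, the mouse counterpart of human miR-424, at 0.554 (0.485 to 0.633). By ratio the nearest was miR-23a-3p, at 0.552 (0.541 to 0.563). The wider interval of miR-210-5p lay below those of 12 names and overlapped 5. These comparisons are between microRNAs of the same pair of libraries and describe those libraries only.

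A second list held 13 microRNAs reported to act on the HIF system. Of these, 9 reached 50 counts, all 9 had ratios below 1, 3 were at least 2-fold lower, and the median log2 ratio was -0.67. Among all 356 microRNAs, 203 had ratios below 1 and 48, or 13.5%, were at least 2-fold lower, with a median of -0.14. The 3 were miR-17-5p at 0.442 (0.401 to 0.487), miR-18a-5p at 0.422 (0.299 to 0.587) and miR-20a-5p at 0.467 (0.410 to 0.532), which come from 1 cluster, miR-17-92, and are known to target the HIF alpha subunit. Only the first of them had a whole interval below 0.5. Among the more abundant members, miR-107-3p, known to target HIF beta (Arnt), had a ratio of 0.784, miR-31-5p, which targets the factor inhibiting HIF, 0.911, miR-22-3p 0.671, miR-155-5p 0.629 and miR-199a-5p 0.858. The list shares miR-107-3p, miR-155-5p and miR-322-5p with the previous one. The interval of miR-210-3p overlapped those of 3 of the 9 and lay below the other 6. The names under 50 counts were miR-138-5p with 25 counts in db/db and 35 in db/+, miR-135b-5p with 2 in db/db and 0 in db/+, miR-429-3p with 1 in db/db and 0 in db/+, and miR-20b-5p with 0 in both. For miR-20b-5p a limit of 3 counts, which is not the exact interval used elsewhere, allows up to 0.123 CPM in db/db and 0.116 CPM in db/+.

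**Figure D4:**
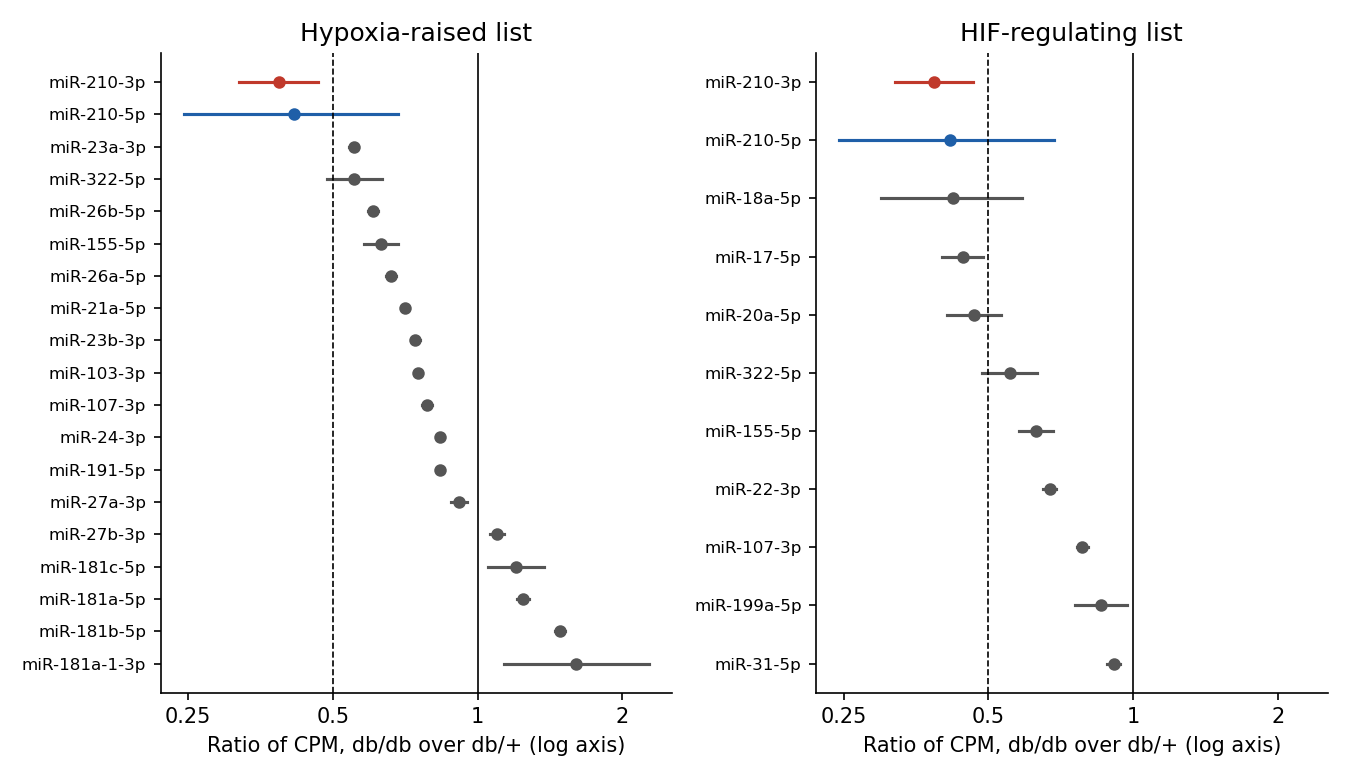
Ratio of CPM, db/db over db/+, on a log axis, for miR-210-3p (red) and miR-210-5p (blue) above the members with at least 50 counts in a library of the hypoxia-raised list (left) and the HIF-regulating list (right); lines are 95% counting intervals, solid vertical lines mark 1 and dashed lines 0.5. All 17 intervals on the left lie to the right of that of miR-210-3p, and 3 members on the right have ratios under 0.5.

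Base composition moved with the ratios of these libraries, and miR-210 went against that trend. A mature sequence was matched for 286 of the 356 microRNAs, or 80.3%. The log2 ratio of db/db over db/+ was higher by 0.25 for each 10 percentage points of GC content, as the slope of a line over these microRNAs, which are not independent. The median log2 ratio was -0.45 for the 46 sequences under 40% GC, -0.20 for the 106 from 40% to under 50%, and 0.21 for the 134 at 50% or more. MiR-210-3p is 63.6% and miR-210-5p 68.2% G and C. Of the 36 microRNAs with a GC content at least that of miR-210-3p, the median log2 ratio was 0.30. Of these, 2, or 5.56%, had a ratio of 0.5 or less, and the 2 were the strands of miR-210. The share was similar, 9 of 134 or 6.72%, among all sequences at 50% GC or more. It was 13.5% among all 356, which include names without a matched sequence. The cut was set at the GC content of miR-210-3p itself. MiR-210-5p reached 50 counts only in db/+, where it was high, so this is a description only. With the line subtracted, the ratio was 0.301 for miR-210-3p and 0.2999 for miR-210-5p, further from 1 than without it.

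**Figure D5:**
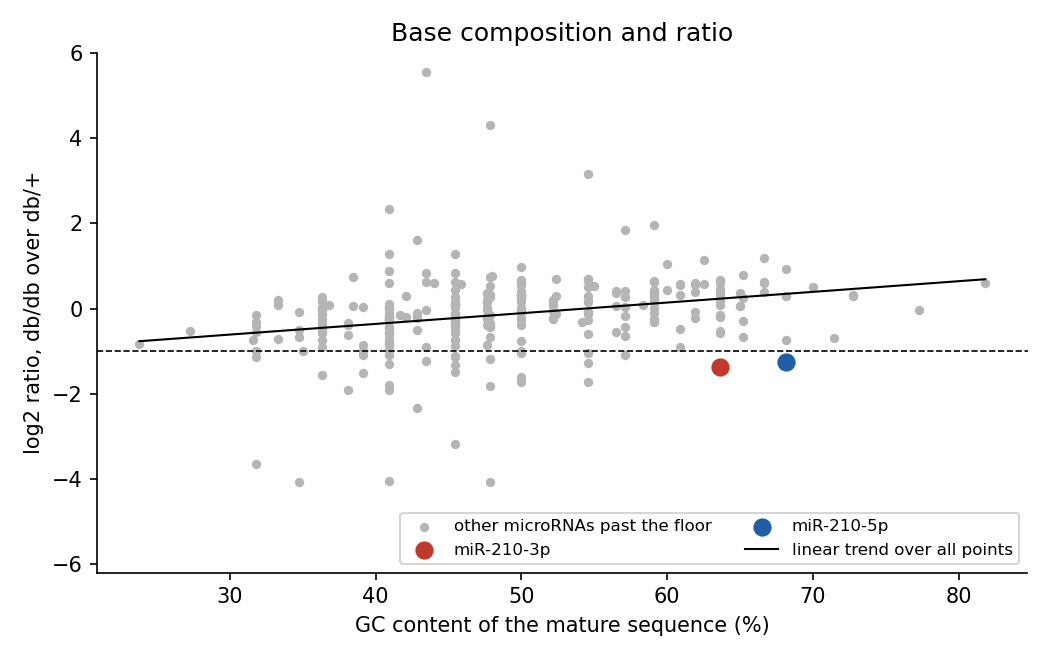
GC content of the mature sequence (horizontal, in percent) and log2 ratio of db/db over db/+ (vertical) for the 286 microRNAs that reached 50 counts in either library and had a matched sequence; the solid line is the linear trend and the dashed line a ratio of 0.5. The miR-210 strands (red and blue) are at 63.6% and 68.2% GC. At or above the GC content of miR-210-3p, a cut set by that strand itself, no other plotted point lies below the dashed line.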

How the data were processed

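Small RNA data from 1 library per genotype were analysed. Each deposited table holds, per the file headers, a raw read count and a TMM-normalized value for every mature microRNA name. Novoalign, edgeR and mm10 are named in the submitters' processing notes, without versions or roles, and trimming, catalogue and multi-mapping rules are not stated there. The authors' deposited normalized reads were whole numbers, treated as a score: about 1.06 times the count in db/db and 0.939 times in db/+. They served only as 1 alternative scaling.

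Counts were scaled to library totals. Ratios are db/db over db/+ with exact conditional 95% intervals (SciPy 1.17.1), and log2 ratios had 0.5 counts added. With 1 library per group no test was possible and no p-value was computed. Intervals and floors (3 counts for a count of 0) cover counting error only, since there is 1 library per group. The deposited counts are raw reads, so copies made by PCR could not be told apart here. In counts simulated for the db/db and db/+ comparison with Poisson counting error only, 95.1% of intervals held the simulated ratio. This is an average over 40 draws with a mean of 343 microRNAs each. The intervals assume the same error, so the draws check the calculation and not variation between cultures. RNAfold 2.7.2 gave the structure. Alternatives used edgeR 4.0.16 and DESeq2 1.42.0 factors.

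The members and lists were chosen with earlier results of these data known. Named microRNAs were both strands, the 5 most abundant and all 2-fold members of each list, the 5 nearest in level, 3 on each side in ratio, hairpins with both strands lower, and precursors within 5 Mb. Further list members, marker names and level neighbours were named after their values were seen.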

Additional observations from a re-analysis of the deposited data

How the results depend on the processing

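Both strands of miR-210 stayed below a ratio of 0.5 under every scaling tried. The ratio of miR-210-3p was 0.384 without let-7 and miR-98 in the totals and 0.410 to 0.413 with edgeR TMM, DESeq2, upper-quartile and deposited TMM scaling, and that of miR-210-5p was 0.413 without them and 0.442 to 0.455 with the others. With the GC trend removed, an alternative added after the data were seen, the ratio was 0.301 for miR-210-3p and 0.301 for both strands summed, outside their counting intervals. Counts of microRNAs followed the thresholds by construction: a floor of 10 counts gave 91 lower and 46 higher, no floor gave 259 lower and 171 higher, and a 1.5-fold limit gave 86 lower and 48 higher. Hairpins with both strands lower numbered 11 at a floor of 10, 24 with no floor and 10 at 1.5-fold, but 2, without miR-210, at a floor of 100 and with the whole interval past 2-fold. The HIF-regulating list had 5 lower members at 1.5-fold and 1 with the whole interval past 2-fold, and the hypoxia-raised list had 5 at 1.5-fold. Of 76 alternative values, 62 stayed within their interval or 1.5 times the count. At 23 counts in db/db, miR-210-5p is limited by depth. No paired analysis was possible because there is a single library per genotype; for the same reason no library could be left out.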

Other observations

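Other microRNA genes lie within 5 Mb of Mir210 on chromosome 7, and none of their strands reached 50 counts in either library. The most counted was miR-483-5p, from an intron of the imprinted Igf2 gene, with 2 counts in db/db and 29 in db/+. Its ratio was 0.0736, with a counting interval of 0.00851 to 0.291. The only others detected were miR-202-5p with 1 count in each library, miR-7063-5p with 1 in db/db and 3 in db/+, and miR-3105-5p with 1 in db/db and 0 in db/+.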
